A study of Mus musculus with 12 samples.

Results

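The respiratory chain of mitochondria is assembled from proteins encoded in the nucleus and in the mitochondrial DNA, and the transcripts of both genomes were followed here in sorted mouse pre-T cells. Members were the genes with at least 120 counts over the 12 libraries whose symbol starts with Nduf, Sdha to Sdhd, Uqcr, Cox4 to Cox8 or Atp5, without names in -ps, or with mt-Nd, mt-Co, mt-Cytb or mt-Atp. This gave 104 of the 43629 genes in the table, 92 of them nuclear and 12 mitochondrial. By role the nuclear members were 36 of complex I, 4 of complex II, 8 of complex III, 15 of complex IV and 17 of complex V, with 8 assembly factors of complex I (Ndufaf) and 4 of complex II (Sdhaf). The mitochondrial members were 6 of complex I, 1 of complex III, 3 of complex IV and 2 of complex V. A further 9 nuclear symbols lay under the count minimum, among them Cox4i2 with 43 counts and Cox8b and Ndufa4l2 with 0, and 7 symbols in -ps were left out, of which Atp5l-ps2 had 127 counts. The gene mt-Nd4l, which overlaps mt-Nd4 by 7 bases, was listed with 0 counts in every library.

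The study profiled total RNA of FACS-sorted thymic pre-T cells from the C57BL/6 strain, with 4 replicate libraries per group. The DCKO group held DN3 cells of mice with the genotype Zfp36l1fl/fl, Zfp36l2fl/fl and CD2cre. The control DN3b and control DN3a groups came from Zfp36l1fl/fl, Zfp36l2fl/fl mice, for which no Cre is listed. Zfp36l1 and Zfp36l2 encode proteins that bind AU-rich messenger RNA and promote its decay. DN3a and DN3b are the stages before and after beta selection, at which thymocytes that have made a working T cell receptor beta chain start to divide. Since CD2-driven Cre acts across lymphocytes and the controls carry the floxed alleles alone, loss of the genes at this stage, earlier loss and the presence of Cre cannot be told apart. The DCKO cells are labelled DN3, without the split into DN3a and DN3b made for the controls. In both DCKO comparisons genotype and the mix of these stages therefore cannot be told apart. Neither the age of the mice nor the number of mice behind a library is given in the sources used here.

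The libraries held 28479157 to 45975678 counts. Both targeted genes were low in every DCKO library: Zfp36l1 averaged 2.33 CPM in DCKO, 14.3 CPM in DN3b and 33.9 CPM in DN3a, and Zfp36l2 averaged 63.9, 364 and 541 CPM in the same groups. CPM are counts per 1000000 counts of a TMM-scaled library. All 12 markers fixed for DN3 pre-T cells reached 1 CPM in each group. Of the markers of other cells, Cd79b, a B cell gene, stood at 20.4 CPM in DCKO, 18 CPM in DN3b and 48.7 CPM in DN3a, and Epcam, an epithelial gene, at 12.6, 24.4 and 96.1 CPM. The summed markers of CD4 and CD8 thymocytes ranged from 9.43 to 37.0 CPM in DCKO, from 25.9 to 64.4 CPM in DN3b and from 4.73 to 5.52 CPM in DN3a. Their part in the results was not tested. In DCKO library 1, 9.02% of all counts fell on the single feature ENSMUSG00000045999. It also held the most counts in DN3a library 4 (2.61%), DN3b library 1 (2.21%) and DCKO library 4 (1.48%). DCKO library 2 held 6309 CPM of Lars2, against 13.5 to 37.5 CPM in the other DCKO libraries.

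As background, complexes I and II pass electrons from NADH and succinate to ubiquinone, complex III passes them on to cytochrome c, and complex IV hands them to oxygen. Complexes I, III and IV pump protons, and complex V, the ATP synthase, uses the gradient to make ATP. Mitochondrial DNA encodes core subunits of complexes I, III, IV and V but none of complex II, so every complex but complex II draws subunits from both genomes. Nuclear genes are transcribed one by one, whereas mitochondrial genes are read as long transcripts that are cut into messengers, ribosomal and transfer RNA.

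Promoters were read for motifs because nuclear members are transcribed separately and yet, as given below, most moved together. RefSeq promoters (GRCm38.p6), 250 bases before to 50 bases after the start site, were found for 78 of the 92 nuclear members. The consensus of NRF1, a nuclear factor that acts on many respiratory genes, stood in 10.3% of these member promoters, in 3.42% of those of all genes tested and in 1.41% of all 27025 promoters. The ETS letters CCGGAAG stood in 26.9% of member promoters, 21.0% of those tested and 9.93% of all. The YY1 letters AAGATGGC stood in 14.1% of member promoters, 5.5% of those tested and 3.19% of all, and the SP1 letters GGGCGG in 48.7%, 68.0% and 38.2%. Among members higher than DN3a in both other groups, 7 of 67 held the NRF1 consensus (10.4%), against 1 of 11 among the other members (9.09%). The same split gave 25.4% against 36.4% for the ETS letters, 14.9% against 9.09% for YY1, 43.3% against 81.8% for SP1, and 34.3% against 45.5% for NRF1 or ETS. Both strands were searched, none of these motifs contains another, and a match is a description of letters, not of binding. The 250 bases before a start site are printed 5′ to 3′ to show where such letters lie, in Sdhd, Atp5c1 and Atp5j, and what a window without NRF1, ETS and YY1 letters looks like, in Cox6b2. They were chosen after their values were seen and do not stand for the members that rose or fell. NRF1, ETS and YY1 letters are in capitals. Sdhd, a membrane anchor of complex II, holds an NRF1 and an ETS match (chr9:50603850-50604099, minus strand). Atp5c1, the gamma subunit of the ATP synthase, holds an NRF1 match just before 1 of its 2 listed start sites (chr2:10080433-10080682, minus strand). Atp5j, coupling factor 6 of the ATP synthase, holds a YY1 and an ETS match before 1 of its 2 listed start sites (chr16:84834977-84835226, minus strand). The window before the other start site of Atp5c1 and of Atp5j held 0 matches to these 3 motifs. Cox6b2, a minor form of a complex IV subunit, holds the SP1 letters but none of the other 3 motifs in this window (chr7:4753095-4753344, minus strand).
Sdhd: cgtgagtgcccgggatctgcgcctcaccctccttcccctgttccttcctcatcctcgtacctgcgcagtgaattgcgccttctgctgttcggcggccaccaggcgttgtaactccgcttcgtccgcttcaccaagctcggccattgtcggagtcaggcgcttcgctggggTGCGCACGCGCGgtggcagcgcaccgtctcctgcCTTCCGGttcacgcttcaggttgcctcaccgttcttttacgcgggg
Atp5c1: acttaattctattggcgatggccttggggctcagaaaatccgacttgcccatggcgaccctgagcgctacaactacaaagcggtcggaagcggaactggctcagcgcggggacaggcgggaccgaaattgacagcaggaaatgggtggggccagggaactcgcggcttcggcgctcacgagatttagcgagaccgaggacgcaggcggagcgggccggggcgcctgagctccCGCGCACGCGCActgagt
Atp5j: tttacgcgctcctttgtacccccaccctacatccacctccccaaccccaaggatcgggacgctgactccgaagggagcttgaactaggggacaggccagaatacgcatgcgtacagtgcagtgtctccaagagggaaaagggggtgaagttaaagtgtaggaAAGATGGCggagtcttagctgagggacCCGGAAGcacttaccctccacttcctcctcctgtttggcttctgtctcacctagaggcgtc
Cox6b2: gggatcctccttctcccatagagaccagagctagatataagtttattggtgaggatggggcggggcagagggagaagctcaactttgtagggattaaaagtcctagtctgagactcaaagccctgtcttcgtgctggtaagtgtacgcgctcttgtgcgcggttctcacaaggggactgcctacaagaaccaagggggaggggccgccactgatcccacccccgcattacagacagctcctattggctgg

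Nuclear and mitochondrial members parted between the groups. The summed level of the 92 nuclear members was 17540, 15487, 14129 and 14632 CPM in DCKO libraries 1 to 4, 13249, 13049, 14207 and 15705 CPM in DN3b, and 7634, 7073, 7855 and 8408 CPM in DN3a. Every DCKO and DN3b library lay above every DN3a library, while the DCKO and DN3b ranges overlapped. The 12 mitochondrial members together gave 17996, 17451, 14727 and 12252 CPM in DCKO, 13028, 18808, 20376 and 13763 CPM in DN3b, and 17348, 19672, 17357 and 16652 CPM in DN3a. With TMM scaling all 3 groups overlapped, and the DCKO and DN3b libraries were spread more widely than the DN3a libraries. As a share of all counts the mitochondrial members took 1.15% to 1.57% in DCKO, 1.31% to 1.98% in DN3b and 1.80% to 2.29% in DN3a. On that measure every DCKO library lay below DN3a, while DN3b overlapped it. The nuclear members took 1.31% to 1.43%, 1.32% to 1.49% and 0.825% to 0.909% in the same groups.

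The ratio of summed mitochondrial to summed nuclear counts does not depend on library scaling. It was 1.03, 1.13, 1.04 and 0.837 in DCKO, 0.983, 1.44, 1.43 and 0.876 in DN3b, and 2.27, 2.78, 2.21 and 1.98 in DN3a. The DN3a libraries lay wholly above the others, and DCKO and DN3b overlapped. On the log2 scale the mean ratio in DCKO was below that in DN3a by a difference of -1.19, a fold of 2.29, and in DN3b by -0.99, a fold of 1.99. Between DCKO and DN3b the difference was -0.21, smaller than the SD of 0.37 among the DN3b libraries. No p is given for this score. Leaving out each library in turn gave -1.26 to -1.10 for DCKO minus DN3a and -1.10 to -0.86 for DN3b minus DN3a. DCKO minus DN3b was -0.34 without DN3b library 4, -0.10 without DN3b library 2 or 3 and -0.12 without DCKO library 4. Sums are led by the most abundant genes, and with the median over members in place of the sum the differences were -0.63 for DCKO and -0.54 for DN3b. By that median the groups overlapped: DCKO library 2 (3.23) and DN3b library 2 (3.28) lay above DN3a library 1 (3.22) on the log2 scale. In bulk RNA, fewer cells of a type and less RNA per cell cannot be told apart.

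**Figure D1:**
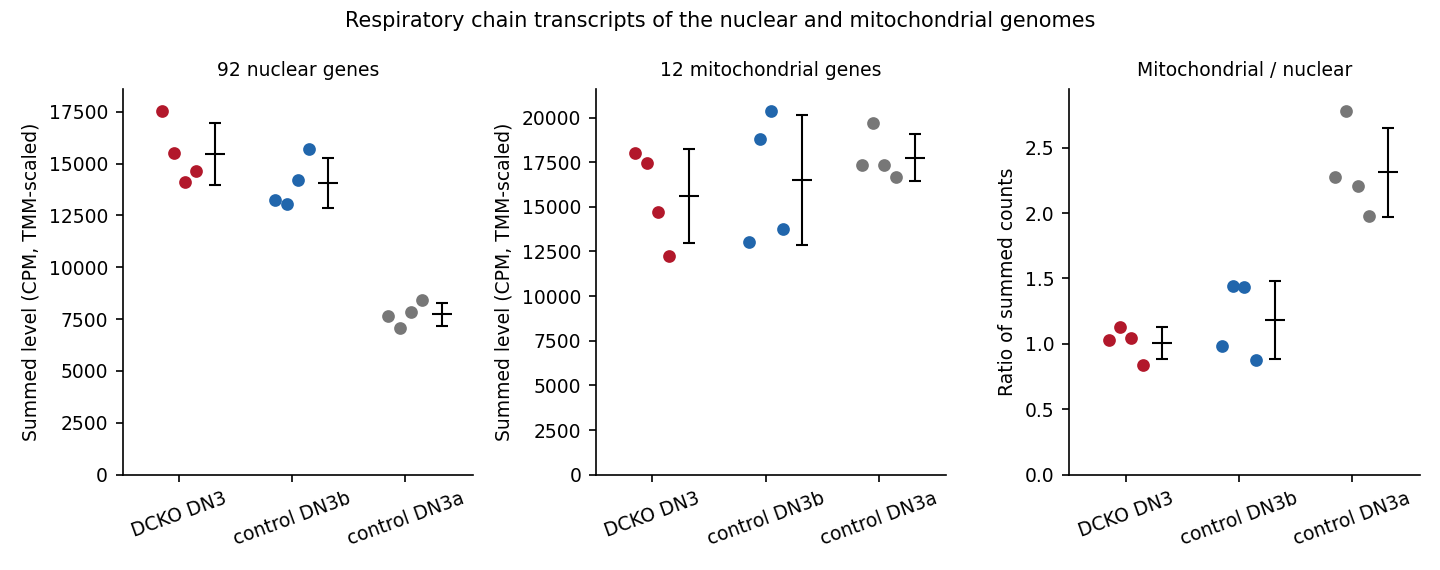
Summed level of the 92 nuclear and the 12 mitochondrial members (CPM, TMM-scaled) and the ratio of their summed counts; each point is 1 library, and the bar with whiskers is the mean ± SD (n = 4). Nuclear sums of DCKO and DN3b lie above all DN3a sums, mitochondrial sums overlap, and the ratio is 0.837 to 1.44 in DCKO and DN3b against 1.98 to 2.78 in DN3a.

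The ratio differed by complex. In complex V it was 0.170 ± 0.0319 in DCKO, 0.226 ± 0.0871 in DN3b and 0.488 ± 0.0582 in DN3a (SD, n = 4), the widest gap of the 4 complexes on the log2 scale. In complex IV it was 4.97 ± 0.541 in DCKO, 5.86 ± 1.49 in DN3b and 11.4 ± 2.12 in DN3a. For complexes IV and V no DCKO or DN3b library reached the DN3a range. In complex III, where mt-Cytb is the sole mitochondrial member, the ratio was 0.545 ± 0.144 in DCKO, 0.610 ± 0.206 in DN3b and 1.03 ± 0.0997 in DN3a. In complex I it was 0.643 ± 0.123, 0.680 ± 0.182 and 0.936 ± 0.0935 in the same groups, the narrowest gap, with log2 differences from DN3a of -0.56 for DCKO and -0.50 for DN3b. Again neither group reached the lowest DN3a ratio, 0.947 in complex III and 0.879 in complex I.

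Across the nuclear members the rise was general and of moderate size. Against DN3a, 82 of 92 were called higher and 2 lower in DCKO, where 30.7% of all 13944 genes tested were called higher and 29.5% lower (edgeR, adjusted p under 0.05, 60.2% in either direction). In DN3b 81 were higher and 2 lower, where 27.4% of all genes were higher and 25.2% lower. The median log2 fold change of the nuclear members was 0.95 in DCKO and 0.87 in DN3b, against -0.04 and -0.02 over all genes tested. Every DCKO library lay above every DN3a library in 79 nuclear members and below in 2, where 27.8% and 27.1% of all genes were so placed. For DN3b these counts were 78 and 2, where 24.8% and 23.0% of all genes were. Both comparisons share the DN3a libraries. With replicate number as a block, 81 nuclear members were higher and 2 lower in DN3b (33.0% and 34.3% of all genes). Upper quartile scaling gave 77 higher in DCKO and 79 in DN3b, and moved the share of higher among all called genes to 36.1% in DCKO and 40% in DN3b, against 50.9% and 52.0% with TMM. The rise passed 2-fold in 41 nuclear members in DCKO and in 27 in DN3b, and no share of all genes is given beside these counts. Short transcripts of like abundance leaned the same way: among the 156 genes tested that are not nuclear members, have a mean between 51.5 and 149 CPM and at most 1737 exonic bases, 75% were higher in DCKO and 71.2% in DN3b. The range is that between the quartiles of the nuclear members, and the length is their median. Taken alone, with members kept in, the length limit gave 27.1% higher in DCKO and 27.3% in DN3b. The abundance range alone gave 50.2% and 41.2%. Abundance and length were set by the members' own values, and their part in the result was not tested.

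**Figure D2:**
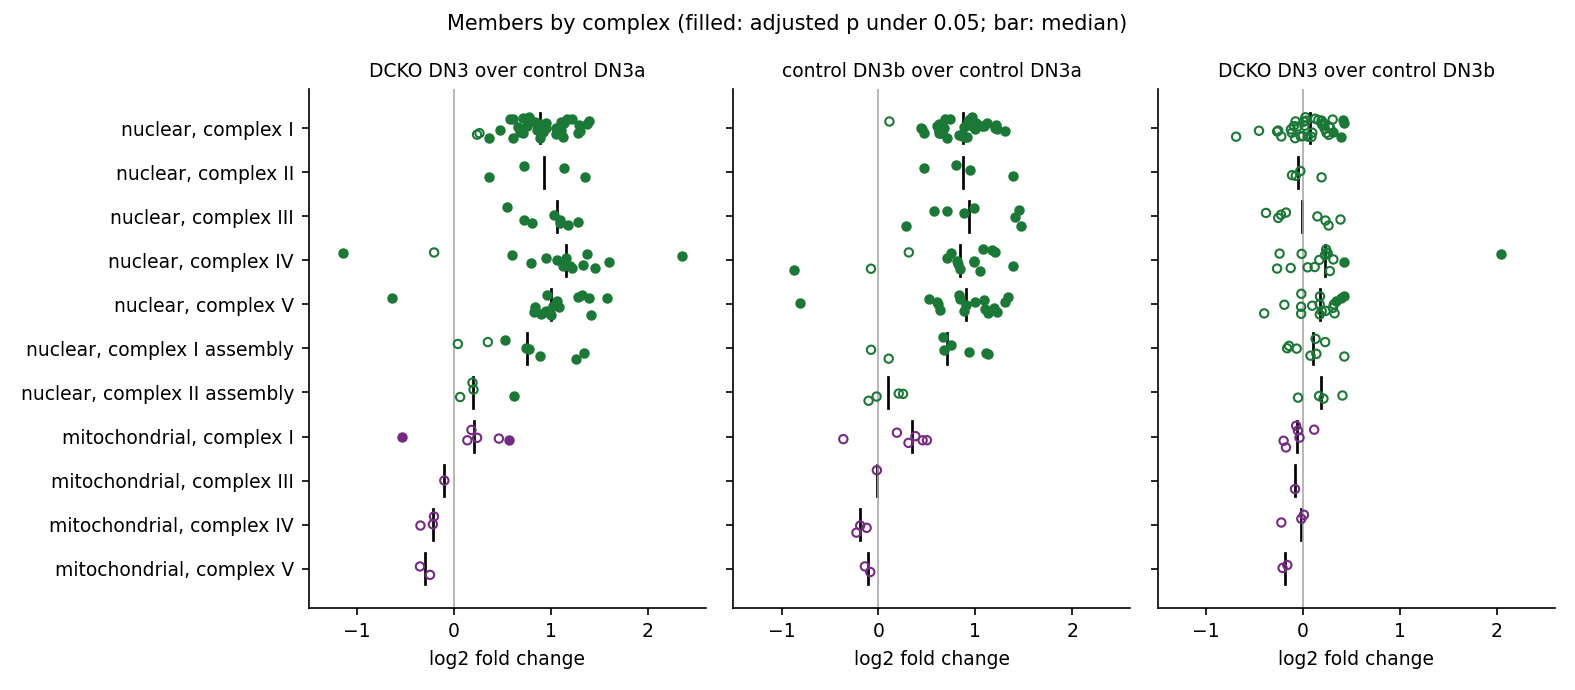
Fitted log2 fold change of each member by genome and complex in DCKO over DN3a, DN3b over DN3a and DCKO over DN3b; filled points passed an adjusted p under 0.05 (edgeR) and bars are medians. Nuclear subunits of every complex lie mostly to the right of 0 against DN3a, with medians over all nuclear members of 0.95 and 0.87, and gather near 0.13 between DCKO and DN3b.

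Complex I is the entry point for electrons from NADH. Of its 36 nuclear members, 34 rose in DCKO and 35 in DN3b against DN3a. Ndufb6, an accessory subunit of the membrane arm, had 86.2, 73.3, 66.7 and 69.8 CPM in DCKO, 69.4, 60.7, 68.8 and 78.0 CPM in DN3b, and 27.3, 28.2, 30.9 and 33.8 CPM in DN3a. Both groups stood clear of DN3a, with log2 rises of 1.3 ± 0.11 (SE, edgeR adjusted p = 3.87e-06) in DCKO and 1.20 ± 0.11 (2.58e-05) in DN3b. Ndufs1, the large iron-sulfur subunit of the matrix arm, had 246, 228, 190 and 177 CPM in DCKO, 146, 175, 170 and 209 CPM in DN3b, and 96.6, 121, 106 and 119 CPM in DN3a. It too was above DN3a in every library, by 0.93 ± 0.13 in DCKO and 0.66 ± 0.13 in DN3b. Ndufb2, another membrane arm subunit, was not called in either comparison, with log2 fold changes of 0.24 ± 0.15 in DCKO (adjusted p = 0.188) and 0.11 ± 0.15 in DN3b (0.548).

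Some complex I subunits had lower mean levels in DCKO than in DN3b. Ndufs7, which holds the last iron-sulfur cluster before ubiquinone, had 27.1, 20.7, 24.4 and 40.4 CPM in DCKO, 63.1, 33.2, 44.6 and 40.7 CPM in DN3b, and 35.7, 14.7, 21.7 and 21.8 CPM in DN3a. All groups overlapped in part, and it was called in DN3b against DN3a only (0.95 ± 0.28, edgeR adjusted p = 0.0115). Its difference between DCKO and DN3b, -0.69 ± 0.28, missed the threshold (0.0992) and passed it without DCKO library 4 (-0.92, 0.0345). Ndufv1, which binds NADH, rose by 0.61 ± 0.15 in DCKO and by 1.07 ± 0.15 in DN3b, and DCKO against DN3b gave -0.45 ± 0.15 (0.0556). That last value passed in DESeq2 (0.0386) and limma-voom (0.0495), with upper quartile scaling (-0.53, 0.0258), and on leaving out DN3a library 1 (0.0412), DN3a library 2 (0.0334) or DCKO library 4 (-0.57, 0.0195). Ndufb7, a subunit of the intermembrane face, ranged from 37.1 to 82.0 CPM in DCKO, 47.2 to 84.2 CPM in DN3b and 15.6 to 40.2 CPM in DN3a, so that DCKO overlapped DN3a.

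Assembly factors of complex I followed in part. Of 8, 6 rose in both comparisons with DN3a. Ndufaf2 had 20.1, 17.0, 18.8 and 16.2 CPM in DCKO, 12, 15.6, 15.5 and 18.4 CPM in DN3b, and 4.07, 7.35, 8.15 and 8.81 CPM in DN3a. No DCKO or DN3b library reached down to DN3a, and the log2 rises were 1.34 ± 0.21 and 1.11 ± 0.21. Ndufaf1, a factor of the membrane arm, had log2 fold changes of 0.04 ± 0.17 in DCKO and 0.11 ± 0.17 in DN3b, and Ndufaf3 of 0.35 ± 0.21 and -0.08 ± 0.21. Neither passed the threshold in edgeR (adjusted p = 0.159 to 0.846).

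Complex II, succinate dehydrogenase, has no mitochondrially encoded subunit. All 4 of its genes rose in both comparisons, but not evenly. Sdhb, the iron-sulfur subunit (chr4:140961203-140979193, plus strand, GRCm38), had 206, 167, 167 and 195 CPM in DCKO, 185, 167, 195 and 201 CPM in DN3b, and 74.6, 62.7, 72.6 and 76.6 CPM in DN3a. The DCKO and DN3b values intermingled far above DN3a, with log2 rises of 1.36 ± 0.10 (edgeR adjusted p = 2.19e-06) and 1.39 ± 0.10 (2.58e-05). Sdha, the flavoprotein with the succinate site, had 338, 369, 336 and 304 CPM in DCKO, 286, 367, 408 and 395 CPM in DN3b, and 222, 256, 280 and 290 CPM in DN3a. Every DCKO library was above DN3a, and DN3b library 1 lay within the DN3a range. It rose the least of the 4, by 0.36 ± 0.12 in DCKO (0.0227) and 0.47 ± 0.12 in DN3b (0.00637). Leaving out DN3a library 1 (0.0743) or any of DCKO libraries 1 to 3 (0.0559 to 0.0874) ended the call in DCKO, as did upper quartile scaling (0.14, 0.338), and without DCKO libraries 1 and 2 the value was 0.27 (0.176). The membrane anchors lay between, Sdhc at 0.73 ± 0.11 in DCKO and 0.80 ± 0.12 in DN3b, and Sdhd at 1.14 ± 0.11 in DCKO and 0.94 ± 0.10 in DN3b.

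The assembly factors of complex II stood apart from its subunits. Their summed level was 96.9 ± 7.31 CPM in DCKO, 86.0 ± 2.51 CPM in DN3b and 87.8 ± 4.57 CPM in DN3a (SD, n = 4). Sdhaf2, which helps attach the flavin to Sdha, had 72.0, 69.6, 65.1 and 61.4 CPM in DCKO, 60.7, 61.1, 57.2 and 59.9 CPM in DN3b, and 66.6, 67.0, 61.9 and 60.8 CPM in DN3a. The DN3a values overlapped both other groups. Sdhaf3, which helps mature the iron-sulfur subunit, rose in DCKO by 0.62 ± 0.14 (edgeR adjusted p = 0.00244), while DN3b gave 0.21 ± 0.14 (0.233). Sdhaf1, Sdhaf2 and Sdhaf4 passed in neither comparison in this fit, and upper quartile scaling made Sdhaf2 a call in DN3b (-0.25, 0.0235).

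In complex III all 8 nuclear members rose in both comparisons. Uqcrc2, a core subunit and the most abundant of them by counts, had 418, 390, 366 and 326 CPM in DCKO, 269, 317, 311 and 380 CPM in DN3b, and 198, 214, 213 and 230 CPM in DN3a. Its rises were 0.81 ± 0.11 in DCKO and 0.58 ± 0.11 in DN3b on the log2 scale. The small subunit Uqcr11 had 67.2, 50.1, 43.7 and 82.9 CPM in DCKO, 109, 59.3, 79.3 and 70.1 CPM in DN3b, and 38.0, 16, 29.5 and 31.0 CPM in DN3a. It was the largest rise in DN3b among the nuclear members, 1.47 ± 0.27 (edgeR adjusted p = 0.000726), with 1.09 ± 0.27 in DCKO. Uqcrh, the hinge protein, rose the least, by 0.55 ± 0.10 in DCKO and 0.28 ± 0.10 in DN3b (0.0248). Its DN3b call ended on leaving out DN3a library 1 (0.0682) or either of DN3b libraries 2 (0.0541) and 4 (0.0724). Scaling by the upper quartile ended it too (0.14, 0.232). The Rieske iron-sulfur protein Uqcrfs1 rose by 1.03 ± 0.12 and 0.88 ± 0.12.

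Complex IV, cytochrome c oxidase, held 3 of the subunits that were not called higher in both comparisons. Of 15 nuclear members 13 rose and 1 fell in DCKO, and 12 rose and 1 fell in DN3b. Cox7a2, the widely used form of its subunit, had 263, 227, 219 and 211 CPM in DCKO, 145, 168, 174 and 199 CPM in DN3b, and 69.4, 68.6, 78.3 and 86.7 CPM in DN3a. The groups did not overlap, DCKO being the highest, and the log2 rises were 1.6 ± 0.12 (edgeR adjusted p = 1.93e-06) and 1.18 ± 0.12 (2.88e-05). Cox6a1, the liver-type form, had 136, 122, 116 and 132 CPM in DCKO, 124, 106, 132 and 149 CPM in DN3b, and 49.4, 37.7, 49.8 and 58.1 CPM in DN3a. DCKO and DN3b again intermingled above DN3a. Cox5a, a subunit of the matrix side, rose by 1.46 ± 0.19 in DCKO and 1.21 ± 0.19 in DN3b.

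The isoforms Cox6b1 and Cox6b2 of complex IV moved in opposite directions. Cox6b2, a form best known from testis, had 3.31, 4.12, 7.24 and 9.92 CPM in DCKO, 10.3, 8.10, 6.42 and 4.78 CPM in DN3b, and 14.4, 12.5, 15.4 and 12.2 CPM in DN3a. Both groups lay below DN3a, with log2 fold changes of -1.14 ± 0.32 in DCKO (edgeR adjusted p = 0.00717) and -0.87 ± 0.31 in DN3b (0.0318). Leaving out either of DN3a libraries 1 (0.0544) and 3 (0.0742), or of DN3b libraries 3 (0.0785) and 4 (0.0857), ended the DN3b call, and the DCKO call without DCKO libraries 1 and 2 (-0.68, 0.0656). Its partner Cox6b1 rose by 0.79 ± 0.10 in DCKO and 0.75 ± 0.10 in DN3b. Cox6b1 stood at 259 CPM per kilobase of exon in DCKO, 250 in DN3b and 149 in DN3a, and Cox6b2 at 5.55, 6.68 and 12.3 on the same scale.

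Forms known from muscle were near the floor of detection. Cox6a2 had 2.38, 1.53, 1.73 and 4.02 CPM in DCKO, 1.48, 0.319, 0.292 and 0.195 CPM in DN3b, and 0.797, 0.578, 0.403 and 0.0650 CPM in DN3a. Every DCKO library was above every control library, with a log2 fold change over DN3a of 2.36 ± 0.66 (edgeR adjusted p = 0.00779). Cox7a1 had 3.02, 2.92, 1.57 and 1.34 CPM in DCKO, 2.0, 2.28, 2.07 and 1.76 CPM in DN3b, and 1.12, 0.728, 0.995 and 1.01 CPM in DN3a. It rose by 1.20 ± 0.29 in DCKO (0.00298) and 1.08 ± 0.29 in DN3b (0.0069), and the DCKO call was lost without DCKO libraries 1 and 2 (0.58, 0.0873). Cox7a2l, which has been tied to supercomplexes of complexes III and IV, had 222, 190, 185 and 193 CPM in DCKO, 274, 201, 195 and 192 CPM in DN3b, and 255, 197, 228 and 231 CPM in DN3a. Its log2 fold changes were -0.20 ± 0.13 in DCKO (0.175) and -0.08 ± 0.13 in DN3b (0.625), and upper quartile scaling turned the DCKO value into a call (-0.43, 0.00772), as did leaving out DN3b library 1 and DCKO library 1 (-0.29, 0.0188).

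**Figure D3:**
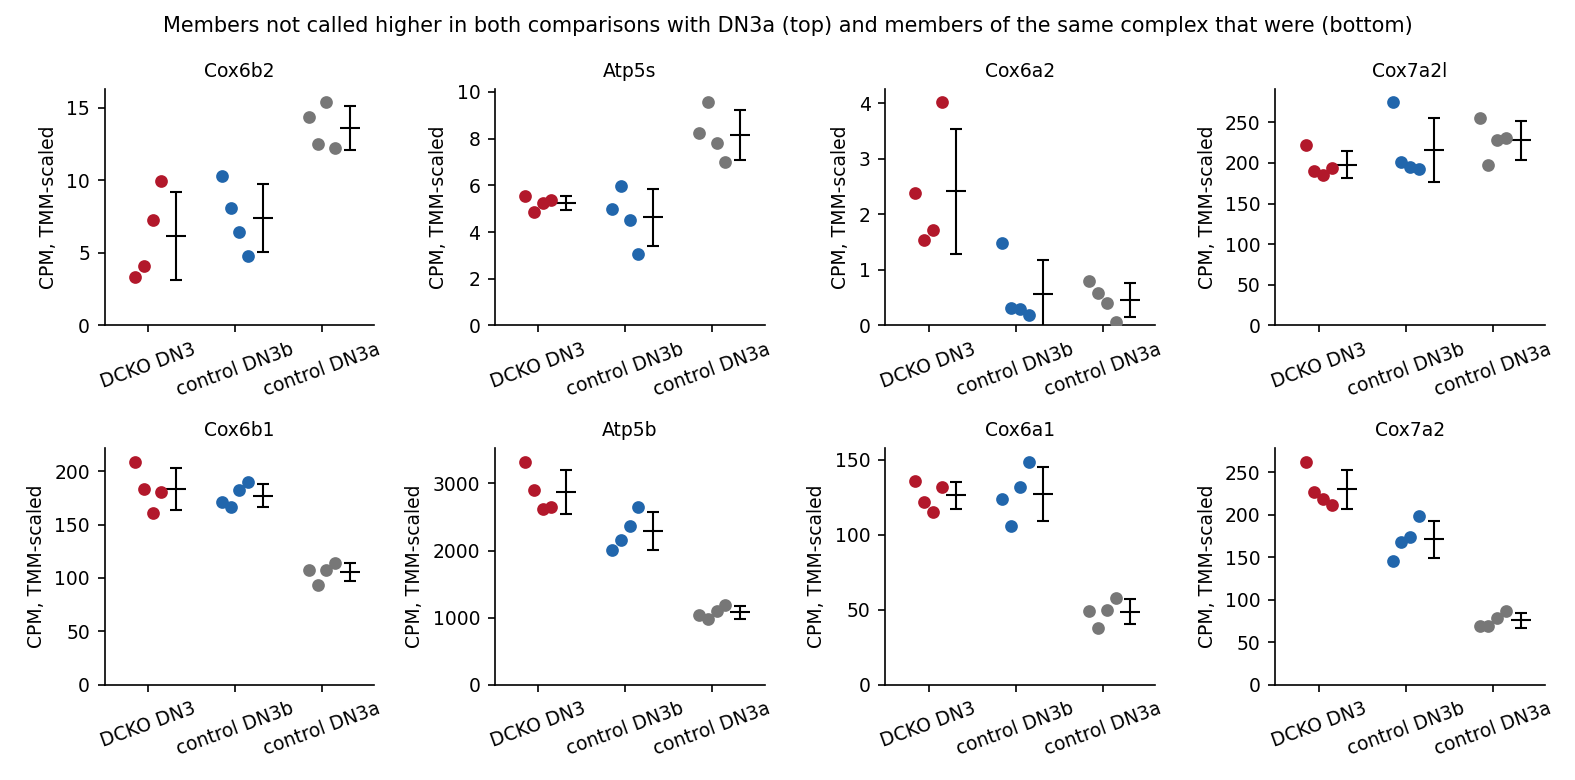
Level (CPM, TMM-scaled) of 4 members that were not called higher in both comparisons with DN3a (top) and of 4 members of the same complex that were (bottom); each point is 1 library, and the bar with whiskers is the mean ± SD (n = 4), drawn no lower than 0. Cox6b2 and Atp5s are lower in DCKO and DN3b than in every DN3a library, Cox6a2 is highest in DCKO at 1.53 to 4.02 CPM, Cox7a2l overlaps in all groups, and Cox6b1, Atp5b, Cox6a1 and Cox7a2 stand above DN3a.

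Complex V made up the largest part of the nuclear sum, 48.3% ± 0.6 in DCKO, 46.5% ± 1.1 in DN3b and 43.0% ± 0.5 in DN3a (SD, n = 4). Of 17 members 16 rose and 1 fell in both comparisons. Atp5b, the catalytic beta subunit (chr10:128083273-128090391, plus strand), had 3326, 2904, 2620 and 2656 CPM in DCKO, 2001, 2155, 2367 and 2653 CPM in DN3b, and 1039, 976, 1102 and 1188 CPM in DN3a. DCKO and DN3b overlapped only in their nearest libraries and both stood above DN3a, by 1.42 ± 0.12 (edgeR adjusted p = 4.09e-06) and 1.09 ± 0.12 (4.31e-05) on the log2 scale. Atp5k, subunit e of the membrane part, had 142, 118, 102 and 106 CPM in DCKO, 83.8, 93.0, 107 and 115 CPM in DN3b, and 35.6, 35.7, 39.5 and 46.2 CPM in DN3a. Its rises were 1.58 ± 0.14 and 1.34 ± 0.14. The 3 genes for the c subunit of the rotor, Atp5g1, Atp5g2 and Atp5g3, encode the same mature protein and rose by 1.40 ± 0.15, 0.94 ± 0.19 and 1.29 ± 0.16 in DCKO and by 1.22 ± 0.15, 1.13 ± 0.19 and 1.19 ± 0.16 in DN3b.

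Atp5s, the exception, carries the symbol Dmac2l in newer annotation and encodes a factor associated with the ATP synthase rather than a catalytic subunit. It had 5.52, 4.84, 5.23 and 5.36 CPM in DCKO, 4.98, 5.99, 4.51 and 3.06 CPM in DN3b, and 8.26, 9.55, 7.79 and 7.02 CPM in DN3a. Both groups were below DN3a, with log2 fold changes of -0.64 ± 0.19 in DCKO (edgeR adjusted p = 0.0121) and -0.81 ± 0.19 in DN3b (0.00374). Without DCKO libraries 1 and 2 the DCKO value missed the threshold (-0.64, 0.0616), and then no nuclear member was called lower in DCKO against DN3a while 76 were called higher.

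With TMM scaling the mitochondrial members showed no common shift. In DCKO against DN3a, 1 of 12 was called higher and 1 lower, where 60.2% of all genes were called. In DN3b against DN3a 0 of 12 were called by edgeR, DESeq2 or limma-voom, where edgeR called 52.6% of all genes. At an unadjusted p under 0.05, 2 were higher in DN3b, mt-Nd1 and mt-Nd3, and 0 lower. These fits took no account of the pairing of DN3a and DN3b libraries by number. With replicate number as a block edgeR called mt-Nd3 higher in DN3b, where 33.0% of all genes were called higher. The median log2 fold change of the 12 was -0.15 in DCKO and -0.05 in DN3b with TMM scaling. With upper quartile scaling it was -0.38 and -0.19. The TMM medians rested on single libraries. In DCKO the median was -0.26 without DCKO library 2 and -0.05 without DCKO library 4. In DN3b it was 0.13 without DN3b library 1, -0.10 without DN3b library 2, -0.22 without DN3b library 3, -0.0065 without DN3b library 4 and -0.02 without DN3a library 2, and -0.13 with replicate number as a block. Without DN3b library 1, which had the lowest level in 10 of the 12 within its group, edgeR called 3 higher in DN3b: mt-Nd1 (0.69, adjusted p = 0.00319), mt-Nd5 (0.52, 0.023) and mt-Nd6 (0.60, 0.0412). In that fit 3968 of all 14175 genes tested were called higher in DN3b. Each of the 3 encodes a subunit of complex I, as do 6 of the 12 mitochondrial members.

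Fitted log2 fold changes of the complex I messengers other than mt-Nd4 were above 0 and those of all the rest below 0 in both comparisons when all libraries were used with TMM scaling. With upper quartile scaling mt-Nd2 (-0.08) and mt-Nd6 (-0.04) turned negative in DCKO, and without DN3b library 1 mt-Atp6 (0.04), mt-Atp8 (0.09) and mt-Cytb (0.17) turned positive in DN3b. mt-Nd1, which forms part of the ubiquinone pocket, had 909, 989, 920 and 646 CPM in DCKO, 518, 951, 1253 and 829 CPM in DN3b, and 574, 657, 615 and 663 CPM in DN3a. DCKO library 4 and DN3b library 1 were low within their groups, and both groups overlapped DN3a. The log2 values of 0.47 ± 0.21 in DCKO (edgeR adjusted p = 0.0763) and 0.50 ± 0.21 in DN3b (0.0649) missed the threshold. The DCKO value passed without DCKO library 4 (0.59, 0.0342) or DN3b library 1 (0.47, 0.0169), and in a fit of the 8 DCKO and DN3a libraries alone (0.42, 0.0181). mt-Nd3 had 1027, 898, 501 and 534 CPM in DCKO, 594, 744, 688 and 706 CPM in DN3b, and 475, 554, 475 and 487 CPM in DN3a. DCKO libraries 1 and 2 were the highest of the 12 and DCKO libraries 3 and 4 lay within the DN3a range, while all DN3b libraries were above DN3a. Among all genes 24.8% showed such a gap.

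mt-Nd3 was called in DCKO (0.57 ± 0.20, edgeR adjusted p = 0.0253), and the call rested on DCKO libraries 1 and 2, without which the value was 0.04 (0.826). Leaving out DN3a library 1 (0.0557), DN3a library 3 (0.0583), DCKO library 1 (0.124) or DCKO library 2 (0.0961) alone ended the call. So did upper quartile scaling (0.34, 0.149) and a fit of the 8 libraries alone (0.53, 0.055). In DN3b mt-Nd3 missed the threshold (0.46 ± 0.20, 0.0712), and with the 8 control libraries and replicate number as a block it passed (0.43, 0.000964). It passed as well without DCKO library 1 (0.0408), 3 (0.0432) or 4 (0.0476). mt-Nd4, a proton-pumping subunit, had 141, 229, 218 and 132 CPM in DCKO, 132, 229, 265 and 187 CPM in DN3b, and 294, 258, 224 and 269 CPM in DN3a. It fell in DCKO by 0.54 ± 0.22 on the log2 scale (0.0479), and the call ended on leaving out any of DN3a libraries 1 (0.0973), 2 (0.0764) and 4 (0.0838) and of DCKO libraries 1 (0.104) and 4 (0.134).

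The complex IV messengers were the most abundant. mt-Co1, the catalytic subunit, had 7553, 6898, 5748 and 5109 CPM in DCKO, 5645, 7330, 7392 and 5246 CPM in DN3b, and 7482, 8115, 6855 and 6726 CPM in DN3a. The groups overlapped, and the log2 fold changes were -0.21 ± 0.16 in DCKO and -0.19 ± 0.16 in DN3b. mt-Co2 gave -0.22 ± 0.15 in DCKO and -0.23 ± 0.15 in DN3b, and mt-Co3 -0.34 ± 0.19 and -0.12 ± 0.19, the first of which passed without DCKO library 1 (-0.50, 0.0433). In complex V, mt-Atp6 gave -0.35 ± 0.23 in DCKO and -0.14 ± 0.23 in DN3b, and mt-Atp8, which overlaps it by 43 bases, -0.25 ± 0.23 and -0.08 ± 0.23. mt-Cytb of complex III gave -0.10 ± 0.22 and -0.02 ± 0.22. None of these 6 passed in edgeR with all libraries and TMM scaling. With upper quartile scaling mt-Co1 (-0.43, adjusted p = 0.0332), mt-Co2 (-0.44, 0.0277), mt-Co3 (-0.57, 0.0217) and mt-Atp6 (-0.58, 0.0469) were called lower in DCKO. That scaling moved the median of all genes to -0.26 in DCKO over DN3a and to -0.17 in DN3b over DN3a. In DCKO against DN3a it called 5528 of all 13944 genes tested lower.

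**Figure D4:**
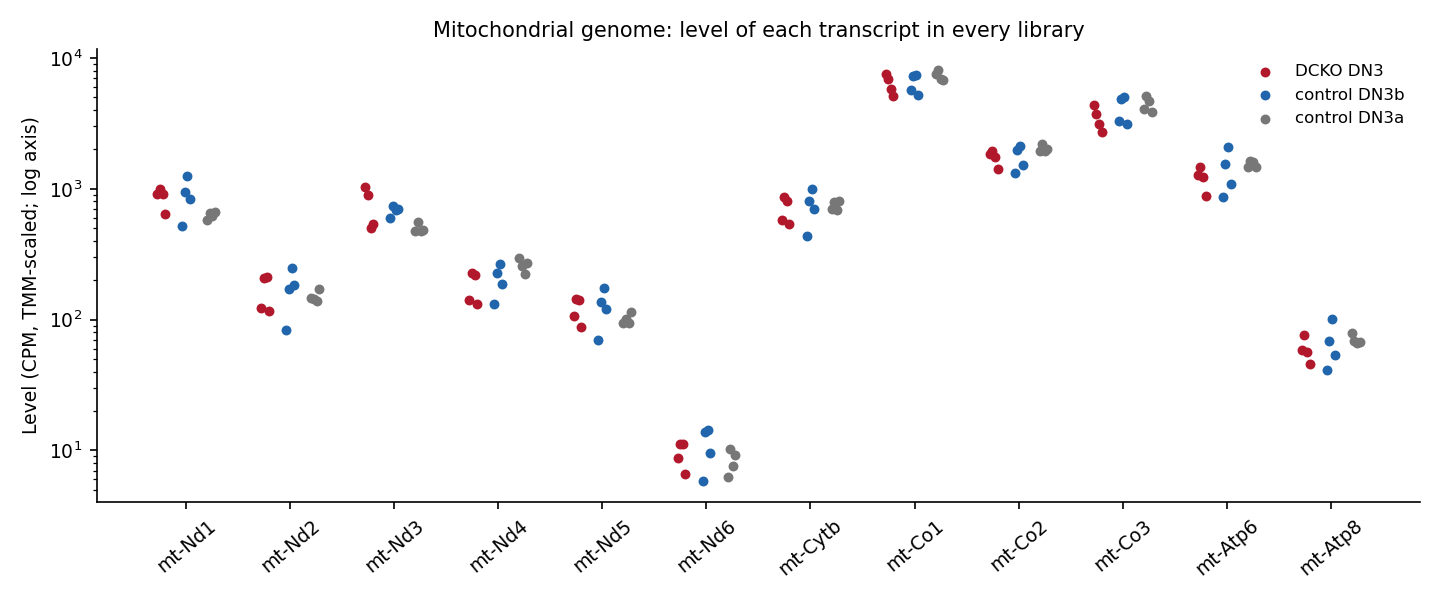
Level of each mitochondrial member in every library (CPM, TMM-scaled, log axis), with DCKO, DN3b and DN3a side by side; each point is 1 library (n = 4 per group). The groups overlap for nearly all transcripts, with mt-Co1 at 5109 to 8115 CPM and mt-Nd6 at 5.83 to 14.3 CPM, and DN3b and DCKO spread more widely than DN3a.

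Shares within the mitochondrial messengers do not depend on scaling either. mt-Nd1 took 5.56% ± 0.52 of them in DCKO, 5.30% ± 1.01 in DN3b and 3.54% ± 0.31 in DN3a (SD, n = 4). Its DCKO shares, from 5.05%, lay above its highest DN3a share of 3.98%, and its lowest DN3b share of 3.97% was just below that. mt-Nd3 took 4.65% ± 1.0 in DCKO, 4.25% ± 0.76 in DN3b and 2.80% ± 0.09 in DN3a, with its lowest shares of 3.40% in DCKO and 3.38% in DN3b above the DN3a maximum of 2.92%. mt-Nd4 took 1.16% ± 0.30, 1.22% ± 0.15 and 1.48% ± 0.21, with overlap. mt-Co1 was steady at 40.6% ± 1.5 in DCKO, 39.2% ± 3.0 in DN3b and 41.1% ± 1.5 in DN3a. Per kilobase, mt-Co3 stood highest in all groups, at 4449 CPM in DCKO, 5194 CPM in DN3b and 5650 CPM in DN3a, followed by mt-Co1, at 4095, 4145 and 4721 CPM. mt-Nd6, the sole member on the light strand, was lowest at 18.3, 21.0 and 16.1 CPM per kilobase. It overlaps mt-Nd5 on the opposite strand by 14 bases.

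Libraries within a group shared their rank over many members. DCKO library 1 was the highest of its group in 65 of 92 nuclear members, against 28.0% of all genes tested, and DN3b library 4 in 62, against 31.0%. DN3a library 2 was the lowest in 51 of 92, against 27.3%. Among mitochondrial members DCKO library 4 was lowest in 11 of 12 and DN3b library 1 in 10 of 12, against 34.2% and 34.4% of all genes. Those libraries also differed in mitochondrial ribosomal RNA, which took 0.165%, 0.939%, 1.08% and 0.570% of the counts in DCKO, 0.307%, 1.28%, 1.44% and 0.929% in DN3b, and 0.896%, 1.85%, 1.69% and 2.51% in DN3a. The library kit removes ribosomal RNA, and the part of its removal in the mitochondrial values was not tested. Without DN3b library 1 and DCKO library 1 together, the pair with the least of it, 80 nuclear members were higher in DCKO and 81 in DN3b against DN3a.

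Between DCKO and DN3b the nuclear members differed little. The median log2 fold change was 0.13, a fold of 1.10, and 59 of 92 were positive. edgeR called 9 higher and 0 lower (3 lower at an unadjusted p under 0.05, and 1 lower by DESeq2 and by limma-voom), 9.78% of the members against 10.3% of all genes called higher and 8.58% lower, so the share was near the background. Every DCKO library was above every DN3b library in 8 members and below in 1, where 11.0% and 9.87% of all genes were so placed. Upper quartile scaling moved the share of higher among all called genes to 39.0%, against 54.6% with TMM. The 9 were Cox6a2, Cox7a2, Ndufs4, Atp5l, Atp5h, Ndufc1, Ndufs5, Ndufa6 and Atp5mpl. Ndufs4, a small subunit of complex I, had 128, 107, 103 and 93.3 CPM in DCKO and 72.1, 80.7, 76.5 and 91.8 CPM in DN3b. The groups did not overlap, and the difference was 0.42 ± 0.11 (edgeR adjusted p = 0.0161). For Cox7a2, whose values are given above, it was 0.42 ± 0.12 (0.0227).

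Each of these 9 calls was lost without at least 1 single library. The count of members higher was 0 without DN3b library 2 or 3 or DCKO library 1, 1 without DCKO library 2, 2 without DCKO library 3, 3 without DN3a library 3 and 4 without DN3b library 1, and 0 without DCKO libraries 1 and 2. The count of members lower was 2 without DCKO library 4 and 1 without DN3a library 1 or 2. Cox6a2, the largest difference at 2.04 ± 0.65 (edgeR adjusted p = 0.0437), held its call without DN3b library 1, its highest DN3b library (3.13, 0.00389), and lost it without each of DN3b libraries 2 to 4 (0.0822 to 0.12) or each DCKO library (0.0607 to 0.0929), and without DN3a library 2 (0.0561) or 3 (0.0611). Of the 12 mitochondrial members 0 were called higher or lower between DCKO and DN3b by edgeR, DESeq2 or limma-voom, and 0 reached an unadjusted p under 0.05. Their log2 fold changes ran from -0.22 for mt-Co3 to 0.12 for mt-Nd3.

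Genes that serve the respiratory chain but fall outside the symbol rule mostly moved with the nuclear members. Of 12 electron carriers and coenzyme Q genes tested, 9 rose and 1 fell in DCKO and in DN3b against DN3a. For this and the lists that follow, 30.7% of all genes tested were called higher and 29.5% lower in DCKO, and 27.4% and 25.2% in DN3b. Cytochrome c, Cycs, which carries electrons to complex IV, had 286, 233, 212 and 199 CPM in DCKO, 126, 147, 156 and 203 CPM in DN3b, and 41.2, 49.2, 50.6 and 63.8 CPM in DN3a. Both groups stood well above DN3a, with log2 rises of 2.18 ± 0.17 in DCKO (edgeR adjusted p = 2.71e-06) and 1.63 ± 0.17 in DN3b (3.45e-05), larger than those of nearly all nuclear members. Coq8a, needed for coenzyme Q synthesis, fell to 1.99 CPM in DCKO and 6.19 CPM in DN3b, against 9.57 CPM in DN3a. Its DN3b call ended on leaving out any 1 of DN3a libraries 1 and 2 and DN3b libraries 3 and 4 (0.0705 to 0.0869). Coq7, a hydroxylase of the same pathway, rose by 1.68 ± 0.17 in DCKO and 1.62 ± 0.17 in DN3b. Of 38 assembly factors of the complexes that were tested, 25 rose (65.8%) and 1 fell (2.63%) in DCKO, and 20 rose (52.6%) and 2 fell (5.26%) in DN3b. Cmc2, a complex IV factor, rose by 1.28 ± 0.11 and 1.14 ± 0.11, and Ttc19, a complex III factor, fell by 0.56 ± 0.14 and 0.44 ± 0.14.

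The tricarboxylic acid cycle, which feeds NADH and succinate to the chain, rose in 11 of 13 genes in DCKO and 13 of 13 in DN3b. Idh3a, a subunit of isocitrate dehydrogenase, rose by 1.48 ± 0.18 in DCKO and 1.10 ± 0.18 in DN3b, and citrate synthase, Cs, by 1.25 ± 0.12 and 0.97 ± 0.12. Mitochondrial ribosomal proteins, which translate the 12 messengers measured here, rose in 73 of 76 genes in DCKO and 74 of 76 in DN3b, with median log2 fold changes of 0.89 and 0.74. Mrps28 of the small subunit averaged 43.2 CPM in DCKO, 29.0 CPM in DN3b and 12.6 CPM in DN3a. Of 17 mitochondrial tRNA synthetases 8 rose (47.1%) and 2 fell (11.8%) in DCKO and 7 rose (41.2%) in DN3b. The DCKO rises include Lars2, which without DCKO library 2 had a log2 fold change of -1.16 (edgeR adjusted p = 0.193).

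Genes that act on mitochondrial DNA and RNA were mixed. Of 23 genes for processing and decay of mitochondrial RNA 17 rose in each comparison (73.9%, where 30.7% of all genes rose in DCKO and 27.4% in DN3b), among them Lrpprc (0.85 ± 0.12 in DCKO, 0.77 ± 0.12 in DN3b) and its partner Slirp (1.18 ± 0.14 and 0.85 ± 0.14), which stabilise mitochondrial messengers. Of 19 genes for replication and transcription of mitochondrial DNA, 5 rose and 7 fell in DCKO, and 4 rose and 5 fell in DN3b, where the shares of all genes were 30.7% and 29.5% in DCKO and 27.4% and 25.2% in DN3b. Tfam, which packages and transcribes mitochondrial DNA, rose by 0.58 ± 0.12 and 0.53 ± 0.12. The RNA polymerase Polrmt had log2 fold changes of -0.04 ± 0.31 in DCKO (edgeR adjusted p = 0.917) and 0.61 ± 0.31 in DN3b (0.11), where it passed without DN3a library 1 (0.97, 0.0106) and with replicate number as a block (0.66, 0.00361). The DNA polymerase Polg had 31.9, 36.8, 30.5 and 41.0 CPM in DCKO, 57.7, 72.4, 94.5 and 83.6 CPM in DN3b, and 14.8, 15.7, 25.9 and 25.9 CPM in DN3a, so that the 3 groups did not overlap. It was higher than in DN3a by 0.77 ± 0.21 in DCKO and 1.91 ± 0.21 in DN3b, and lower in DCKO than in DN3b by a log2 fold change of -1.14 ± 0.21 (0.00257). The mitochondrial deoxynucleoside kinases Tk2 and Dguok fell, Tk2 by 1.45 ± 0.20 and 0.96 ± 0.20 and Dguok by 1.01 ± 0.12 and 0.57 ± 0.12 in DCKO and DN3b.

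Of 9 nuclear regulators of respiratory genes tested, 6 rose in each comparison with DN3a (66.7%, where 30.7% of all genes rose in DCKO and 27.4% in DN3b). Nrf1, whose protein binds the NRF1 consensus, averaged 136 CPM in DCKO, 130 CPM in DN3b and 83.5 CPM in DN3a, with log2 rises of 0.70 ± 0.08 (edgeR adjusted p = 1.23e-05) and 0.64 ± 0.08 (5.35e-05). Gabpa, the ETS subunit of NRF2, rose by 0.55 ± 0.13 in DCKO and 0.34 ± 0.13 in DN3b, and the coactivator Pprc1 by 0.89 ± 0.19 and 1.0 ± 0.19. The DN3b call of Gabpa ended on leaving out any 1 of DN3a libraries 1 and 3, DN3b libraries 2 to 4 and DCKO libraries 2 and 3 (0.0501 to 0.121). The DN3b call of the factor Yy1 ended on leaving out any 1 of DN3a libraries 1 to 3, DN3b libraries 2 to 4 and DCKO libraries 2 and 3 (0.0509 to 0.133). With upper quartile scaling both calls ended (0.205 for Gabpa and 0.213 for Yy1), as they did with no low-count filter, the stricter filter or the 8 libraries alone. Of 9 mitochondrial ribosomal and transfer RNAs tested, 2 fell in DCKO (22.2%, against 29.5% of all genes) and 1 in DN3b (11.1%, against 25.2%). These were the transfer RNAs mt-Ta in both and mt-Ti in DCKO, named after their values were seen. In DCKO the mt-Ta call ended with DESeq2 (0.0843), with no low-count filter (0.106) and on leaving out any 1 of DN3a libraries 1, 2 and 4 and DCKO libraries 2 and 4 (0.0639 to 0.0777). The mt-Ti call ended with limma-voom (0.0533), with no low-count filter (0.054) and on leaving out any 1 of DN3a libraries 2 and 4 and DCKO libraries 1 and 4 (0.0749 to 0.116). In DN3b the mt-Ta call ended with no low-count filter (0.0622). The large ribosomal RNA mt-Rnr2 had log2 fold changes of -1.07 ± 0.52 in DCKO (0.0924) and -0.63 ± 0.52 in DN3b (0.323), and passed in DCKO without DN3b library 1 (-1.06, 0.0491) or with upper quartile scaling (-1.28, 0.0473), and in DN3b with replicate number as a block (-0.77, 0.0193). Of the 8 nuclear copies of mitochondrial genes looked for, 0 passed the filter on low counts.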

How the data were processed

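Libraries were made with a stranded total RNA kit after ribosomal RNA removal, per the labels' protocols. Trimming with Trim Galore, alignment tools TopHat2 2.0.12 and HTSeq, DESeq2 1.6.3 and the build GRCm38 are listed in the submitters' processing notes. No annotation release or strand setting is named there, so overlapping genes, and a gene and its antisense partner, cannot be told apart, and near-identical copies may share or lose reads. The authors deposited raw counts per Ensembl gene, the source of every value here. The authors' deposited tables also hold a mean signal, a log2 fold change, its standard error and Wald score, and p-values. By the authors' deposited table, 82 nuclear members were higher and 2 lower in DCKO, and 81 and 2 in DN3b, against DN3a. Of all genes with an adjusted p there, 4345 of 18285 were higher and 4366 lower in DCKO. In DN3b 3884 of 17646 were higher and 3873 lower. The authors' deposited table called 2 mitochondrial members higher and 1 lower in DCKO and 1 higher in DN3b, against DN3a. Between DCKO and DN3b the authors' deposited table called 9 nuclear members higher and 2 lower, where 1598 of 15223 genes were higher and 1442 lower.

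Symbols and coordinates came from GENCODE release M21. All 12 libraries entered 1 edgeR 4.0.16 quasi-likelihood fit in R 4.3.3 with group as the only term (9 residual degrees of freedom), TMM scaling and filterByExpr (count minimum 10), which kept 13944 genes and every member. Tests were two-sided, with Benjamini-Hochberg adjustment over all genes of a comparison and a threshold of 0.05. The standard error is the log2 fold change divided by the square root of F. DESeq2 1.42.0, limma 3.58.1 (voom), other scalings and filters, left-out libraries and a replicate block were alternatives. The fit was tested on simulated data.

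Same-numbered DN3a and DN3b libraries deviated together (correlations 0.35 to 0.56), so their numbers were taken as pairs; those of DCKO did not (-0.19 to 0.12 with DN3a). All replicate pairs differed by more than counting noise (lowest chi-square over degrees of freedom 30.9). Whether replicates were separate mice is not stated, so p-values measure the spread between these samples. PCR copies are not separated from molecules.

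Motifs were searched with regular expressions, and the full NRF1 consensus was used after a looser form had been counted, which stood in larger shares of all promoter sets. The members and lists were chosen with earlier results of these data known. Named genes are all mitochondrial members, nuclear members that fell or were not called, the largest rises, complex II, the most abundant member per complex, isoform pairs, both targeted genes and the list genes with the smallest p; the other named genes were chosen after their values were seen. Coordinates are 1-based.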

Additional observations from a re-analysis of the deposited data

Results flagged for a closer look

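Of 201 sets of 4 libraries screened over the named members, 7 held a library far from the other 3, where chance alone sets apart about 1 in 20. DCKO library 1 had 101 CPM of Ndufa6, against 84.8 to 86.5 CPM in the other DCKO libraries. DN3b library 1 had 1.48 CPM of Cox6a2, against 0.195 to 0.319 CPM in the other DN3b libraries, and 274 CPM of Cox7a2l, against 192 to 201 CPM. DN3a library 1 had 20.4 CPM of Ndufaf3, against 13.8 to 14.1 CPM in the other DN3a libraries, 79.1 CPM of mt-Atp8, against 66.5 to 68.1 CPM, and 160.3 CPM of Uqcrh, against 178 to 181 CPM. DN3a library 2 had 554 CPM of mt-Nd3, against 475 to 487 CPM.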

How the results depend on the processing

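Counts of nuclear members higher than DN3a stayed between 76 and 82 in DCKO and between 79 and 81 in DN3b under the alternatives run, and the nuclear median stayed above 0. With single libraries left out in turn they were 78 to 82 and 79 to 81, and the nuclear count lower in DN3b was 1 to 2. Without DCKO libraries 1 and 2 the nuclear count lower in DCKO was 0. DCKO against DN3b depended on the fit: of 9 nuclear members higher, DESeq2 gave 14, upper quartile scaling 3, no low-count filter 3, the 8 libraries alone 5, the replicate block 0, the fit without DCKO libraries 1 and 2 0, and that without DN3b library 1 and DCKO library 1 gave 1. Leaving out single libraries gave 0 to 10 higher and 0 to 2 lower. Nuclear members lower were 2 with upper quartile scaling and 1 with DESeq2, limma-voom, the stricter filter or the 8 libraries. Over all genes the 2635 calls became 1062 with the replicate block, 950 without DCKO libraries 1 and 2, and 1601 to 3249 with single libraries left out. DCKO and DN3b replicates share only a number (same-number correlations -0.26 to 0.07), so the block there stands for no known pairing. The block gave 80 nuclear members higher and 2 lower in DCKO against DN3a, where replicates share only a number, and 81 and 2 in DN3b. In DCKO against DN3a the block made mt-Rnr2 a call (-1.28, adjusted p = 0.00728) and ended those of mt-Ta (0.0997) and mt-Ti (0.0505). Mitochondrial members higher in DCKO against DN3a were 0 with upper quartile scaling or without DCKO libraries 1 and 2, and 0 to 2 with single libraries left out. Mitochondrial members lower in DCKO were 5 with upper quartile scaling, 2 with the 8 libraries, with the replicate block or without DN3b library 1 and DCKO library 1, and 0 to 1 with single libraries left out. Of all genes tested, 5528 of 13944 were lower in DCKO than in DN3a with upper quartile scaling. The 8 libraries gave 4268 of 13479, the block 3940 of 13479, and the fit without DN3b library 1 and DCKO library 1 gave 4112 of 14171. Mitochondrial members higher in DN3b were 1 with the 8 libraries, the replicate block or no DCKO libraries 1 and 2, 3 without DN3b library 1 and DCKO library 1, and 0 to 3 with single libraries left out. Of all genes tested, 3564 of 13715 were higher in DN3b with the 8 libraries and 4529 of 13715 with the block. The fit without DCKO libraries 1 and 2 gave 3677 of 14592, and that without DN3b library 1 and DCKO library 1 gave 3906 of 14171. As the median over members, the mitochondrial to nuclear difference was -0.63 in DCKO and -0.54 in DN3b against DN3a. Lars2 turned to -1.68 against DN3a (adjusted p = 0.139) and -0.36 against DN3b (0.853) without DCKO libraries 1 and 2, and its log2 fold change in DCKO over DN3a ran from -1.16 to 6.45 (adjusted p = 0.0137 to 0.193) with single libraries left out. The fit without DN3b library 1 and DCKO library 1 was chosen after seeing the data. The cause of these changes was not tested. At 4 libraries per group, genes near 1 CPM such as Cox6a2 have standard errors of 0.65 to 0.68 on the log2 scale.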
